A study of Mus musculus with 4 samples.

Results

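The choroid plexus epithelium was examined in nuclear RNA of mouse hippocampus, as 195 barcodes out of 60288 in 4 single-nucleus libraries. A barcode was taken as a member where it had at least 400 detected genes and at least 10 unique molecular identifiers (UMIs, counts of captured RNA molecules) of Ttr. It also needed a UMI of at least 2 of the 6 genes Folr1, Kl, Otx2, Htr2c, Clic6 and Prlr, with at most 1 UMI of Slc17a7 and at most 1 of Gad1 and Gad2 together, the latter being markers of excitatory and inhibitory neurons. The wild-type library held 109 members, the total knockout 73, the astrocyte knockout 11 and the neuron knockout 2. Wild type therefore gave 55.9% of the members and the total knockout 37.4%, so they did not come nearly all from wild type.

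The choroid plexus is a fold of vascular tissue in the brain ventricles, covered by a single layer of epithelium that secretes the cerebrospinal fluid and closes off the blood by tight junctions. The epithelium exports transthyretin, the carrier of thyroid hormone and retinol encoded by Ttr, along with growth factors and their binding proteins, and moves ions, water, folate and hormones between blood and fluid. It arises from the roof plate of the neural tube and carries tufts of cilia. In dissections of hippocampus it comes from the strip of plexus in the lateral ventricle beside the fimbria.

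Each genotype had 1 library: wild type, a total or global knockout of monoacylglycerol lipase (MAGL, the enzyme that degrades the endocannabinoid 2-arachidonoylglycerol, encoded by Mgll), a knockout specific to astrocytes and a knockout specific to neurons. The strain, age, sex and number of the animals, the recombinase lines behind the cell-specific knockouts and the part of Mgll that was removed are not stated in the labels. With 1 library per genotype no difference between genotypes has a replicate check and none was tested. Intervals are exact 95% intervals that cover counting error only, and nuclei of 1 library are not replicates.

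Mgll was read first. Over all barcodes it stood at 107 CPM in wild type (UMIs scaled to the same total in each group), 85.3 in the total knockout, 109 in the astrocyte knockout and 110 in the neuron knockout, so its level does not check the labels while the removed part of the gene is unknown. In choroid plexus members Mgll (chromosome 6, 88724412 to 88828360) stood at 130 CPM in wild type (interval 101 to 165, 67 UMIs) and 75.5 in the total knockout (47.3 to 114, 22 UMIs), and the astrocyte and neuron knockout members held 6 UMIs each. With 1 count added on each side, the wild-type members held Mgll at 1.23 times the level of the other wild-type barcodes. The interval of the log2 ratio, without that count, ran from -0.09 to 0.62. The intervals of the wild-type and total knockout members overlapped, but an overlap of separate intervals does not compare the levels. Over all barcodes the intervals lay apart, at 105 to 109 CPM in wild type and 84.0 to 86.6 in the total knockout.

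The libraries held between 8945 and 31243 barcodes and between 81623644 and 193307038 UMIs, with median UMIs per barcode from 5456 (total knockout) to 8904 (wild type). The total knockout library stood apart. It held the most barcodes, and 25830 of its other barcodes carried only Y-linked transcripts against 8 that carried only Xist. The doublet caller Scrublet called 23.3% of it, against 1.98% to 5.87% of the other libraries. Scrublet was given an expected rate of 0.8% per 1000 barcodes, which was highest for this library. The called shares are therefore not like for like. The wild-type library held nuclei of both sexes. Any pair of libraries shared between 108 and 466 barcode sequences, at most 4 of them belonged to a member in either library of a pair, and 0 to a member in both.

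The share of barcodes that met the rule was 1.16% in wild type (interval 0.956% to 1.40%), 0.234% in the total knockout (0.183% to 0.294%), 0.103% in the astrocyte knockout (0.0512% to 0.183%) and 0.0224% in the neuron knockout (0.00271% to 0.0807%). The wild-type share was the highest and its interval overlapped none of the others. How much plexus a dissection took in and a difference between genotypes cannot be told apart with 1 library each. The order of the 4 libraries stayed the same with a Ttr minimum of 5 or 20 UMIs. With doublets and mitochondrial barcodes removed, 101, 1, 9 and 2 members were left, and the total knockout had the lowest number. At the edge of the rule, the lowest Ttr count inside was 19 UMIs in wild type and 12 in the total knockout, and the highest outside, among barcodes that met the other conditions, was 9 and 6. A further 7, 13, 2 and 0 barcodes held Ttr but only 1 of the 6 markers, and 8, 20, 3 and 0 were over the limit on neuronal genes.

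Members were shallower than their libraries, with medians of 4502 UMIs in wild type, 3258 in the total knockout and 3387 in the astrocyte knockout. The 2 neuron knockout members held 4304 and 13994. Some members also carried transcripts of neurons or oligodendrocytes that the rule did not use. Of the 109 wild-type members, 5 held more than 0.3% of their UMIs in 8 general neuronal genes (Rbfox3, Snap25, Syt1, Stmn2, Grin1, Celf4, Nrg3, Rbfox1) and 3 held more than 0.3% in 8 oligodendrocyte genes. In the total knockout 24 of 73 members did so for neuronal genes and 3 for oligodendrocyte genes. Excitatory neurons of wild type held a median of 1.72% in the same 8 neuronal genes.

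Below, members under both limits are called unmixed. They numbered 101 in wild type, 46 in the total knockout, 6 in the astrocyte knockout and 1 in the neuron knockout. They made up 1.08%, 0.147%, 0.0559% and 0.0112% of their libraries. The name covers only the neuronal and oligodendrocyte genes. Single unmixed wild-type members held up to 1.15% of their UMIs in astrocyte markers and up to 0.794% in endothelial markers. The limit was chosen after the values were seen and lies in a gap in wild type, where the highest neuronal share among unmixed members was 0.151% and the lowest among neuronal mixed members 0.887%. In the total knockout these values were 0.0899% and 0.318%. Mixed members of the total knockout were deeper (median 6205 UMIs) than the unmixed ones (2219.5). With the higher expected rate set for the total knockout library, Scrublet called 72 of its 73 members, including all 46 unmixed ones. It called 4 of the 109 in wild type, including 2 unmixed ones. The total knockout result below therefore rests on barcodes that this caller would remove, and its part in the differences was not tested.

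**Figure D1:**
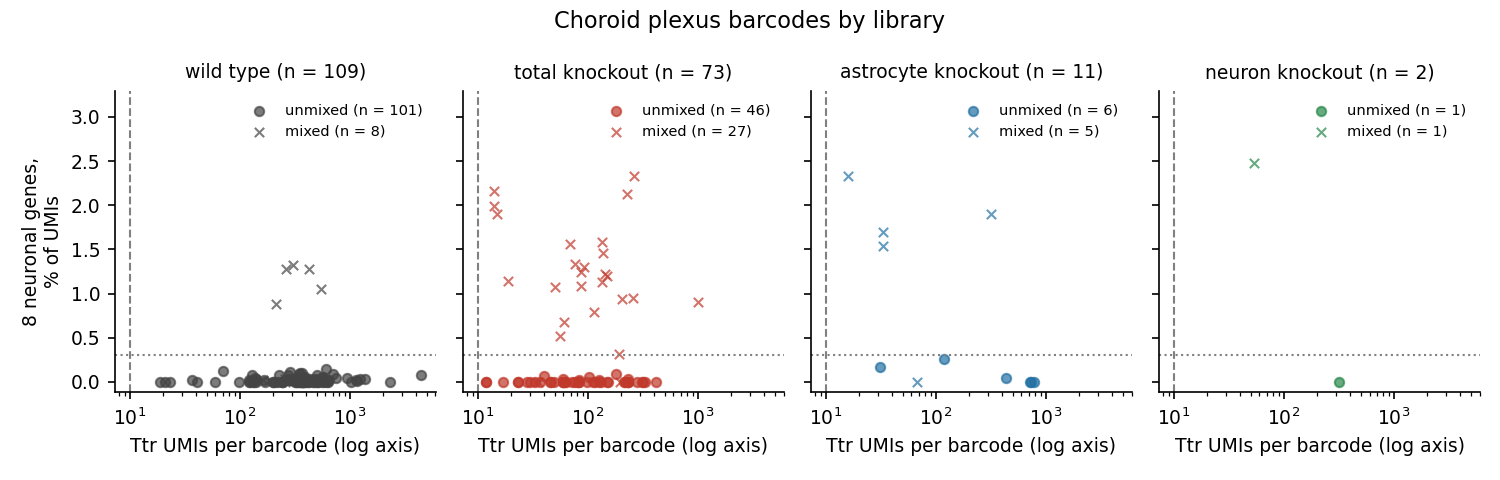
Each panel shows the choroid plexus members of 1 library, with Ttr UMIs per barcode on a log axis and the share of UMIs from 8 neuronal genes in percent; filled points are unmixed, crosses mixed, the dashed line marks 10 UMIs and the dotted line 0.3%. Wild-type points lie along the bottom apart from 5 neuronal mixed members, while 24 of 73 total knockout members lie above the dotted line.

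The defining genes of choroid plexus were present in the members, although the rule used them and they support nothing by themselves. Wild-type members held between 19 and 4440 Ttr UMIs each (median 366), or 0.889% to 38.7% of their UMIs (median 8.42%). Summed over members this was 93825 CPM (interval 92991 to 94665), against 49.5 in the other wild-type barcodes. Of the other marker genes, Htr2c (serotonin receptor 2C) was found in 106 of 109 members at 16572 CPM, Prlr (prolactin receptor) in 102 at 1384, Kl (Klotho, a co-receptor for fibroblast growth factor 23) in 96 at 731, Clic6 (an intracellular chloride channel family protein) in 94 at 779, Folr1 (folate receptor alpha) in 81 at 415 and Otx2 (a homeobox factor of the plexus) in 68 at 310.

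Markers of other cell types were read in the unmixed wild-type members. The 8 general neuronal markers took 0.0258% of their UMIs (1.70% in the other wild-type barcodes), the 8 oligodendrocyte markers 0.0133% (0.0393%) and the 8 astrocyte markers 0.0162% (0.0579%), so these lists were lower in the members. The lists of rarer cells were higher in them. The endothelial list took 0.0856% against 0.00146% in the other barcodes, the ependymal list 0.0260% against 0.000483%, the 8 microglial markers 0.0144% against 0.00629%, the 8 mural markers 0.00611% against 0.00104% and the meningeal fibroblast list 0.00371% against 0.00185%. The inhibitory neuron list took the most, 0.205% (941 UMIs), against 0.310%. Of these UMIs 873 came from Erbb4, a neuregulin receptor gene that is also on the receptor list, while Gad2, Slc32a1, Dlx6os1 and Nxph1 were at 0. Over all wild-type members, the endothelial markers measured were Mecom (241 UMIs), Slco1a4 (143, also on the nutrient and drug transport list) and Flt1 (24). All were at least 4-fold above the rest. Of the 5 that missed the filter, Pecam1 and Tek had 6 UMIs each, Ly6c1 3 and Cdh5 2, and Cldn5, the tight junction gene of brain endothelium, was the 1 endothelial marker at 0. Ccdc153, a gene of motile ependymal cilia, was at 0 UMIs. The ependymal markers measured, Foxj1 and Ak7 (both also on the cilia list) and Mia, were also above the rest. The same held for the microglial gene Cx3cr1 (45 UMIs) and the pericyte gene Rgs5 (25 UMIs), each the 1 gene of its list that was measured, with Tmem119 and Inpp5d of the microglial list and Acta2, Abcc9 and Myh11 of the mural list at 0 UMIs and the rest of both lists at 1 to 17. All of these measured endothelial, ependymal, microglial and mural genes had passed a filter of at least 20 UMIs through the members alone. The part of such transcripts in the results below was not tested.

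Depth and free RNA bear on how often a gene is seen. With each unmixed wild-type nucleus thinned to 1000 UMIs (93 nuclei, 8 left out), Htr2c was seen in 98.8% of nuclei (94.0% to 99.96%; 98.0% before thinning), against 7.31% of wild-type excitatory neurons (23.0% before). Clic6 was seen in 53.7% after thinning, Kl in 48.6% (excitatory neurons 0.979%), Folr1 in 33.9% (excitatory neurons 0.0195%) and Otx2 in 26.3% (excitatory neurons 0.00821%). The median depth was 4471 UMIs in these members and 11072 in the neurons before thinning. Members held 91.6% of all Ttr UMIs of the wild-type library. At least 1 Ttr UMI was seen in 5.08% of its excitatory neurons, or 0.8002% after thinning. Before thinning the share among neurons was 5.56%, 3.47% and 0.211% in the total, astrocyte and neuron knockout libraries, which held fewer Ttr UMIs in their members in that order (9451, 3276 and 373, against 48414 in wild type). No label states whether the counts had been corrected for free RNA. Ttr in the other barcodes was not read as expression by those cells. Some of these barcodes are close to the rule, 7 in wild type and 13 in the total knockout with 1 marker only, and 8 and 20 over the neuronal limit. The parts of free RNA, mixed barcodes and expression in this Ttr were not tested.

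Ttr, like the other genes with most UMIs in the members, is described by its share of UMIs. In nuclear RNA this share depends on the length of a gene as well as on its expression, so no order of expression between genes is read from it. After Ttr, the most UMIs came from Trpm3 at 22298 CPM (chromosome 19, 22137797 to 22995410), which encodes a calcium-permeable channel and hosts a microRNA of the plexus, from Htr2c (chromosome X, 146962464 to 147197277), and from Enpp2 at 10178 CPM (chromosome 15, 54838901 to 54952789), which encodes the secreted lysophospholipase autotaxin. They were followed by Frmpd4 at 4829, Cadm2 at 4271, Magi2 at 3616, Stk39 at 3269 (the kinase SPAK, which regulates chloride cotransporters), Zbtb20 at 3223 and Slc4a10 at 3174. Cadm2 lay close to its level in the other barcodes, with a log2 ratio of -0.22.

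Across the genome, 6319 genes with at least 20 UMIs observed or expected in the wild-type members were compared with the other wild-type barcodes, most of which were neurons. The log2 ratio had a median of 0.40. Of the genes compared 924 (14.6%) were at least 4-fold higher in the members and 882 (14.0%) at least 4-fold lower. Since these barcodes were chosen by their RNA, the ratios below are a description. A gene that is near 0 elsewhere could be measured only if the members held it, so its call in the higher direction was all but set by the filter. Of all genes compared, 1899 passed the filter through the members alone and 827 of them were at least 4-fold higher. Of the 4420 with at least 20 UMIs expected, 97 were higher and 882 lower. The counts of measured genes are not counts of whole lists.

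Genes for secreted proteins had high ratios in the members. Of 27 on the list, 23 were measured and 23 were at least 4-fold higher, with a median log2 ratio of 7.28, but 19 of the 23 passed the filter through the members alone. The 4 others (Ttr, Enpp2, Apoe and Cst3) were also higher, and the rule had used Ttr and Kl. Members held F5, coagulation factor V, at 384 CPM against 0.201 elsewhere (log2 ratio 10.82). Igf2, a growth factor of the cerebrospinal fluid, stood at 143 against 0.504, and its binding protein Igfbp2 at 421 against 1.56. Sostdc1, a secreted antagonist of BMP and Wnt signals, stood at 393 against 1.15. Ecrg4, which encodes a secreted peptide precursor of the plexus, stood at 948 against 1.38, and Col8a1, a short-chain collagen, at 1200 against 5.84.

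Ratios were smaller for some genes that other cells also use. Trf, transferrin, stood at 145 CPM against 30.6 (log2 ratio 2.27), the lowest ratio of the list, and oligodendrocytes are its best known source in brain. Cst3 (cystatin C), Clu (clusterin) and Apoe (apolipoprotein E) had log2 ratios of 2.69, 3.45 and 3.65. Ins2, one of the insulin genes, held 25 UMIs in members (48.4 CPM, log2 ratio 9.14). Rbp4, the plasma retinol carrier that binds transthyretin, and Penk, the enkephalin precursor, had 0 UMIs in 516002, which allows up to 3 UMIs for each.

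Ion and water transport genes of secretory epithelia were high in the members. Of 22 genes measured of 28, 16 were at least 4-fold higher and 1 lower, with a median log2 ratio of 4.12. Of the 10 with at least 20 UMIs expected, 4 were higher and 1 lower. The rule had used Clic6. The sodium bicarbonate transporter gene Slc4a5 stood at 430 CPM against 0.336 elsewhere (log2 ratio 10.28), the basolateral Slc4a10 at 3174 against 502 (2.66) and the anion exchanger Slc4a2 at 293 against 4.50 (6.03). The cotransporter gene Slc12a2 (NKCC1) stood at 700 against 72.6 (3.27). Among channels, Kcnj13 (Kir7.1) had a log2 ratio of 6.76, Kcne2 (a potassium channel beta subunit) 9.52 and Trpv4 (an osmosensitive calcium channel) 9.28. Aqp1, the apical water channel, held 30 UMIs, or 58.1 CPM, with a log2 ratio of 7.87.

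The sodium pump subunit gene Atp1b1 did not follow these channels, at 709 CPM against 656 elsewhere (log2 ratio 0.12, interval -0.04 to 0.26). By marker-defined class it was higher in inhibitory (1232 CPM, 47 barcodes) and excitatory (777, 19 barcodes) neurons and ependymal barcodes (759). The ependymal class had only 2 barcodes with 3955 UMIs. This excitatory class is not the set of 4608 excitatory neurons used elsewhere. No interval was made for these classes, so no order is read from close values. It was lower in each other class, among them general neuronal (665), endothelial (474), oligodendrocyte (111) and astrocyte barcodes (45.3). The pump's regulator Fxyd1, phospholemman, had a log2 ratio of 6.54, while the kidney regulator Fxyd2 had 0 UMIs. The gene that was at least 4-fold lower was Kcna1, a neuronal potassium channel, with 4 UMIs and a log2 ratio of -2.76.

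Of the nutrient and drug transporters, 19 of 21 measured genes (30 listed) were at least 4-fold higher and 0 lower, with a median log2 ratio of 6.54. Through the members alone 18 of the 21 passed the filter, and 2 of the other 3 were higher. The rule had used Folr1. Folr1, which carries folate into the fluid, stood at 415 CPM against 0.347. The sulfate transporter gene Slc13a4 stood at 252 (log2 ratio 8.95), the glucose transporter gene Slc2a12 at 266 (6.04) and the metalloreductase gene Steap1 at 116 (8.97). The organic anion transporter gene Slco1a5 held 36 UMIs (69.8 CPM, log2 ratio 10.65). Tfrc, the transferrin receptor, lay near the other barcodes at 31.0 against 40.0 CPM. Abcb1a, an efflux pump of brain endothelium, Lrp2 (megalin) and Crabp2 had 0 UMIs.

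The thyroid hormone transporter gene Slco1c1 (OATP1C1) was on that side, at 603 CPM (log2 ratio 7.23). The thyroid list as a whole had 3 of 9 measured genes at least 4-fold higher, with a median log2 ratio of 0.22. The rule had used Ttr; of the 8 others 2 were higher, and Slco1c1 passed the filter through the members alone. The hormone's nuclear receptor gene Thrb stood at 362 CPM in members and 356 elsewhere.

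Among receptors, 5 of 16 measured genes (21 listed) were at least 4-fold higher and 0 lower, with a median log2 ratio of 1.20. The rule had used Htr2c and Prlr; of the 14 others 3 were higher, all of which passed the filter through the members alone. The 5 were Htr2c (6.99), Prlr (6.92), the leptin receptor gene Lepr at 211 CPM (5.59), the urocortin receptor gene Crhr2 at 95.0 CPM (5.50) and the endothelin receptor gene Ednrb at 60.1 CPM (3.62). The mineralocorticoid receptor gene Nr3c2 was at 267 CPM against 825 elsewhere (-1.61). Esr1, Avpr1a, Vipr2 and Gipr, receptors for oestrogen, vasopressin, VIP and GIP, had 0 UMIs in the members.

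Of the junction and polarity genes, 10 of 14 measured (22 listed) were higher and 1 lower, with a median log2 ratio of 4.03. All 10 passed the filter through the members alone, and of the 4 with at least 20 UMIs expected 0 were higher. Cldn2, the claudin of leaky, cation-permeable epithelia, stood at 130 CPM against 0.101 (log2 ratio 10.20). Krt18, a keratin of simple epithelia, had a log2 ratio of 9.64, Igsf5, a junctional adhesion protein, 8.40 and Ezr, which links microvilli to actin, 7.55. Tjp1, which encodes the widely used scaffold ZO-1, was the lower one at 91.1 CPM against 435.

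**Figure D2:**
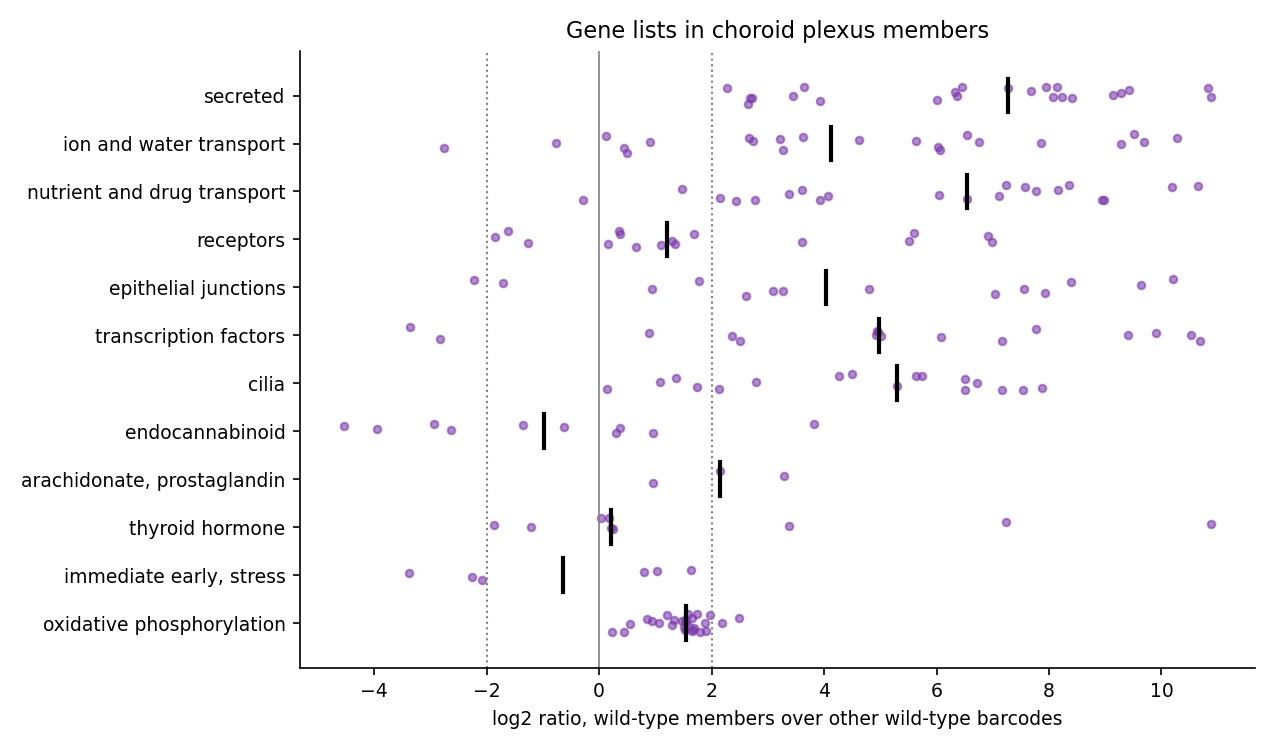
Each point is 1 measured gene of a list, placed by its log2 ratio of wild-type choroid plexus members over the other wild-type barcodes, with lists as rows, a bar at each median and dotted lines at 4-fold. The secreted list has its median at 7.28 and the nutrient list at 6.54, against 0.40 over all 6319 genes, while the endocannabinoid list has its median at -0.98; 19 of 23 secreted and 18 of 21 nutrient genes passed the filter on low counts through the members alone.

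Transcription factors of the roof plate and of ciliated cells came next. Of 16 measured genes (29 listed), 13 were at least 4-fold higher and 2 lower, with a median log2 ratio of 4.98, and 11 of the 13 passed the filter through the members alone. The rule had used Otx2. Otx2 stood at 310 CPM against 0.179 elsewhere (log2 ratio 10.68). Its long noncoding neighbour Otx2os1 (chromosome 14, 48669288 to 48793348) stood at 2070 CPM and was found in 101 of 109 members. The roof plate factor genes Lmx1a and Msx1 stood at 360 CPM (10.52) and 248 CPM (9.40). Of the 2 lower ones, Meis2, a homeobox gene, held 7 UMIs in members (13.6 CPM) and stood at 160 CPM elsewhere. Of the 17 genes for position in the hindbrain (Hox, En and Gbx2), none was among the genes listed for wild type, so their levels were not analysed here.

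Some genes of the multiciliated programme were present and others were not seen. Gmnc, which starts that programme, stood at 1432 CPM (log2 ratio 7.78), the motile cilia factor gene Foxj1 at 56.2 CPM (7.17) and Rfx2 at 116 CPM (4.96). Mcidas, Ccno and Myb, which act after Gmnc in that programme, had 0 UMIs in the members, and no other wild-type class held them above 8.20 CPM. The small classes could not show so low a level, among them the ependymal (2 barcodes, 3955 UMIs) and mural ones (11 barcodes, 9807 UMIs). A value of 0 there does not show absence. Rfx3, which neurons also express, stood at 1353 CPM against 729. Of 17 measured cilia genes (30 listed), 13 were at least 4-fold higher and 0 lower, with a median log2 ratio of 5.30, and 12 of the 13 passed the filter through the members alone. The axonemal dynein genes Dnah11 and Dnah6 stood at 281 and 401 CPM (7.88 and 7.54), the axoneme genes Cfap43 at 289 (6.73) and Hydin at 114 (5.64), and Tekt1, a ciliary microtubule gene, at 54.3 (6.51). Dnah5, an outer arm dynein gene of motile cilia, held 1 UMI, and Deup1, Dnaaf1 and Ccdc153 held 0.

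Promoters were read for the sites that the factors of these lists are known to bind, and 5 are printed because they belong to genes named above and hold a match. Sequences are from RefSeq (GRCm38.p6), 250 bases up to the start of transcription. The OTX homeodomain core was searched as TAATCC, which reads as GGATTA on the other strand. A core element of the X-box bound by RFX factors was searched as GTTGCC, which reads as GGCAAC on the other strand. Both strands were searched, and neither motif holds the other. Matches are in capitals.
Otx2: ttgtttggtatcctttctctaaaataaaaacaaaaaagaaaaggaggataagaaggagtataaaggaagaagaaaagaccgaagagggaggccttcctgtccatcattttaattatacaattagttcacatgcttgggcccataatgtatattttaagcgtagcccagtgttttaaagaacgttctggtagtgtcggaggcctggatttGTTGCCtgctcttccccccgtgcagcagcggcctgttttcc
Kcne2: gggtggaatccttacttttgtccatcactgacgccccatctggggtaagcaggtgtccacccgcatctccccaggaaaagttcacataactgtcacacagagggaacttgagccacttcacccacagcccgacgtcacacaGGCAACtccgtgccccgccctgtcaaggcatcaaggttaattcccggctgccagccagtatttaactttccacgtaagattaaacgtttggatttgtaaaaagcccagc
Aqp1: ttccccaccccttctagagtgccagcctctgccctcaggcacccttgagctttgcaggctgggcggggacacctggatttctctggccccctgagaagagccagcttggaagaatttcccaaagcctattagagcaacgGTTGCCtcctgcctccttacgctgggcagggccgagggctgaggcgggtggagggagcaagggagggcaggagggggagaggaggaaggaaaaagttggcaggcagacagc
Tekt1: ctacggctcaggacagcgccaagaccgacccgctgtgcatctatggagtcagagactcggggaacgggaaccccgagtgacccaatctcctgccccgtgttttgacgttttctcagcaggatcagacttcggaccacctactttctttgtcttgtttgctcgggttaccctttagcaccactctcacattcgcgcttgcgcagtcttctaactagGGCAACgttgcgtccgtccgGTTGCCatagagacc
Dnah11: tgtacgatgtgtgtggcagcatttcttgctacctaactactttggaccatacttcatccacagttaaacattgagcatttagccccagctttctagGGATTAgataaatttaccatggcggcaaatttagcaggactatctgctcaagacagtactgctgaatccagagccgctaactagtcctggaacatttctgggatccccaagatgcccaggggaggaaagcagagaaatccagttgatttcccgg

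The Otx2 window is chr14:48667645-48667894 on the minus strand, with GTTGCC 41 bases before the start. The Kcne2 window is chr16:92292139-92292388 (plus strand, match 109 bases before the start) and the Aqp1 window chr6:55336049-55336298 (plus strand, match 111 bases before the start). That of Tekt1, chr11:72361883-72362132 on the minus strand, holds 2 matches, 35 and 15 bases before the start. The Dnah11 window, chr12:118199044-118199293 on the minus strand, holds the OTX-type motif 154 bases before the start. Otx2 has 4 windows, Kcne2 and Tekt1 2 each, and Aqp1 and Dnah11 1 each. Another Otx2 window, with 2 matches of GTTGCC, overlaps an exon of Otx2 and is not printed. In counts of genes, a match in any window of the gene was taken. In all 32851 windows of this length TAATCC was found in 6.25% and GTTGCC in 10.4%. Over genes with a window, TAATCC was found in 58 of 714 genes at least 4-fold higher in members (8.12%) and 306 of 4963 tested (6.17%), and GTTGCC in 127 (17.8%) and 693 (14.0%). By list, GTTGCC was found in 6 of 22 cilia (27.3%), 6 of 18 ion and water transport (33.3%), 6 of 21 transcription factor (28.6%), 5 of 23 nutrient and drug transport (21.7%), 3 of 16 junction (18.8%) and 3 of 20 oxidative phosphorylation genes (15.0%), above the share of genes tested. Below it were 1 of 15 secreted (6.67%), 1 of 14 endocannabinoid (7.14%), 2 of 18 receptor (11.1%), 2 of 17 arachidonate and prostaglandin (11.8%), 1 of 15 immediate early and stress (6.67%), 1 of 10 hindbrain position (10.0%) and 0 of 9 thyroid hormone genes. In these lists TAATCC was found in 0 to 2 genes each. The list counts take genes with a window whether or not they were measured. The like base is all 27025 genes with a window, where GTTGCC was found in 11.8% and TAATCC in 7.21%. A match is a run of letters and not a measured binding site.

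Genes of endocannabinoid signalling were low or near the other barcodes. Of 10 measured genes (17 listed), 1 was at least 4-fold higher and 4 lower, with a median log2 ratio of -0.98. The lower genes were Cnr1, the CB1 receptor, with 1 UMI against 90.6 CPM elsewhere, Faah, which hydrolyses anandamide (-3.96), Dagla, which makes 2-arachidonoylglycerol (-2.94), and Cnrip1, which binds the CB1 receptor (-2.64). Abhd6, another hydrolase of 2-arachidonoylglycerol, stood at 122 CPM with a log2 ratio of 0.36. The higher gene was Naaa, a lysosomal amidase of N-acylethanolamines, at 58.1 CPM against 4.25 (3.82), and it passed the filter through the members alone. Of the 9 with at least 20 UMIs expected, 0 were higher and 4 lower, against 97 and 882 of all 4420 such genes. Thinned to 1000 UMIs, an Mgll UMI was seen in 11.6% of unmixed wild-type members (5.88% to 19.9%; 31.7% before thinning) and in 9.79% of excitatory neurons (58.6% before).

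On the arachidonate and prostaglandin list 3 of 19 genes were measured. Ptgds, prostaglandin D synthase, stood at 764 CPM against 78.5 (log2 ratio 3.29) and the efflux pump gene Abcc4 at 98.8 against 22.6 (2.15; through the members alone), while the cyclooxygenase gene Ptgs2 had 0 UMIs. Of 6 measured immediate early and stress genes 0 were higher and 3 lower: Nr4a3 (-3.37), Fkbp5 (-2.27) and Nr4a1 (-2.09). All 6 had at least 20 UMIs expected, and of all 4420 such genes 97 were higher and 882 lower. All 27 nuclear genes of oxidative phosphorylation were measured, with a median log2 ratio of 1.54, and 2 passed 4-fold, Atp5g1 (2.49) and Ndufa1 (2.18). Of the 27, 10 passed the filter through the members alone, and 1 of these 10 was past 4-fold. The 75 measured ribosomal protein genes had a median of 1.53, and 8 passed 4-fold. Over all 6319 genes compared the median was 0.40, and 14.6% were at least 4-fold higher. Wild-type members held 0.255% of their UMIs in mitochondrial and 0.788% in ribosomal protein genes. The other wild-type barcodes held 0.0435% and 0.277%. The part of RNA quality in these 2 medians was not tested. The 8 general neuronal markers were all at least 4-fold lower, with a median of -3.68.

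Outside the lists, the 15 genes with the highest ratios included the placental cadherin gene Cdh3 (188 CPM, log2 ratio 10.73), the RNA-binding protein gene Rbm47 (1122 CPM, 10.62), Tmem72 (643 CPM, 10.36), the basement membrane collagen gene Col4a3 (308 CPM, 9.59) and the noncoding Gm29538 (96.9 CPM, 11.52). Among the lowest ratios, Nxph1, a ligand of neurexins, and Sst, somatostatin, had 0 UMIs in the members against 433 and 217 CPM elsewhere. Cntn5, a neuronal contactin, had 5 UMIs (9.69 CPM) against 1317. Nxph1 is on the inhibitory neuron marker list, since marker lists were not left out of this ranking. By class, Nxph1 was highest in oligodendrocyte precursors (3575 CPM), ahead of inhibitory neurons (2756), and Sst and Cntn5 in inhibitory neurons (1356 and 2893).

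The same genes were then set beside the other classes of the wild-type library, defined by markers as 100 astrocytes, 407 oligodendrocytes, 270 oligodendrocyte precursors, 17 microglia, 14 endothelial, 11 mural, 12 meningeal fibroblast and 7885 neuronal barcodes. Ttr was seen in 6.28% of the neurons, 9 of 100 astrocytes, 14 of 407 oligodendrocytes, 7 of 14 endothelial, 3 of 12 meningeal fibroblast and 3 of 17 microglial barcodes, and 0 of 270 oligodendrocyte precursors, where a share of up to 1.36% is allowed. Mural barcodes held it at 16927 CPM, from 166 UMIs in 6 of the 11. Htr2c, Enpp2, Prlr, Kl and Slc4a10 were higher in the choroid plexus than in each of these 8 classes. Enpp2 came next in oligodendrocytes (1574 CPM), which also make autotaxin.

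Trpm3, Ptgds, Apoe and Cst3 were higher in other classes. Trpm3 stood at 30230 CPM in meningeal fibroblasts against 22298 in the plexus and 2982 in astrocytes. Ptgds stood at 73390 in meningeal fibroblasts and 2323 in oligodendrocytes against 764. Apoe was highest in astrocytes at 6560 and Cst3 at 8533 in astrocytes and 7052 in microglia. Over 11 classes, the genes whose log2 level was most like that of Ttr were Ecrg4 (Pearson r of 0.931), Atp5g1 (0.930), Atox1, a copper chaperone gene (0.908), Zdhhc1 (0.869) and Rps6ka2 (0.866). The rule had chosen the plexus class by its Ttr, so its Ttr level was set in advance. The next highest Ttr level, the mural one, came from 166 UMIs in 6 barcodes. These are descriptions over classes of 1 library that share free RNA and differ in depth, the smallest, mural, with 11 barcodes.

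**Figure D3:**
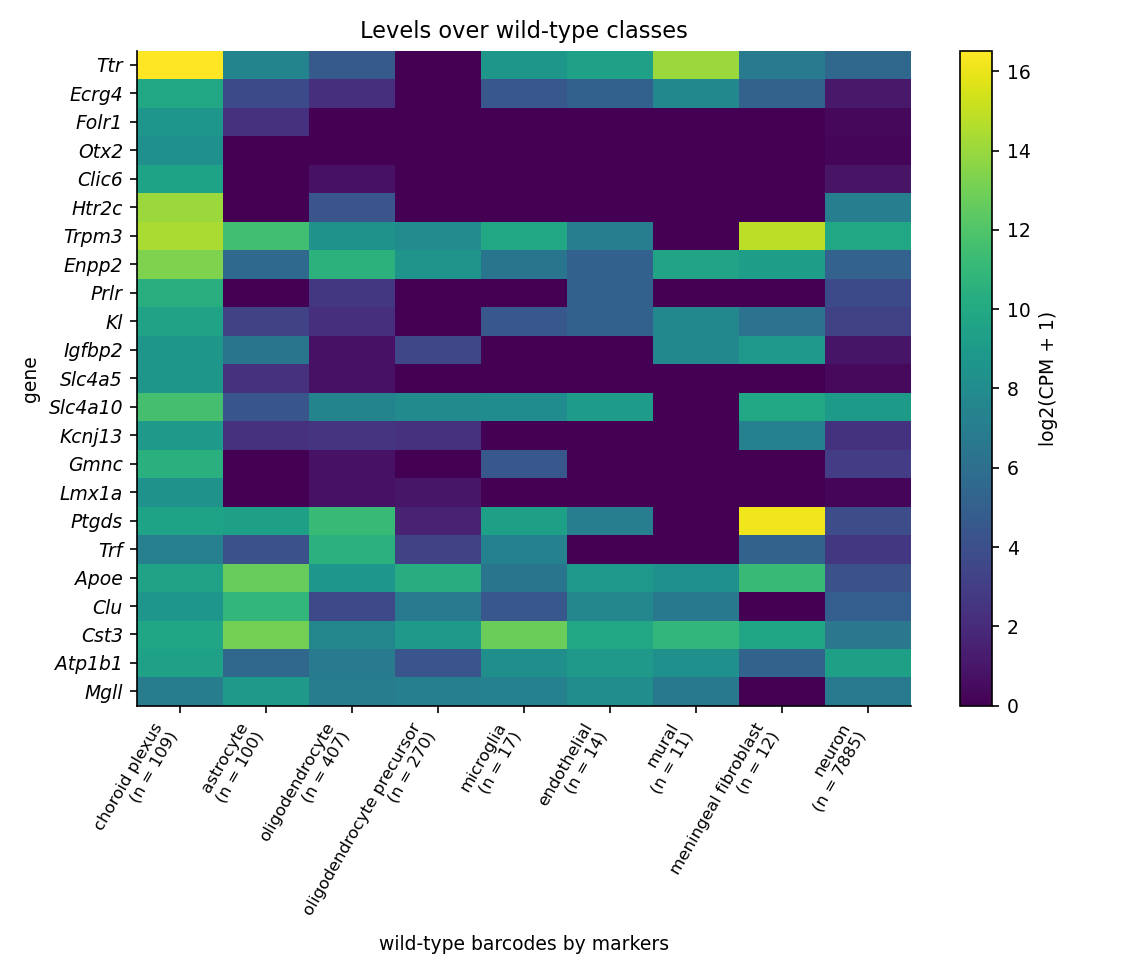
Rows are genes and columns 9 marker-defined classes of the wild-type library, with colour giving the level as log2 of CPM plus 1 on a linear scale. Folr1, Otx2, Clic6 and Htr2c are bright in the plexus column and at or near 0 in most others, while Ptgds and Trpm3 reach higher values in meningeal fibroblasts (73390 and 30230 CPM).

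By variance over mean, members differed from each other most in Ttr. After thinning the 83 unmixed wild-type members with at least 2000 UMIs (18 left out), the variance over the mean of 596 genes had a median of 1.23, where 1 is the value of counting alone and the measure grows with the level of a gene. Ttr reached 65.5, with 15 to 780 of 2000 UMIs per nucleus and a median of 163. Ptgds followed at 14.4, with 0 to 45 UMIs and a median of 1. Htr2c had 7.45 (0 to 74, median 34), Apoe 6.26, Cst3 5.24, Trpm3 4.65 (2 to 74, median 48) and Enpp2 3.16 (2 to 54, median 21). The wild-type member with the highest Ttr share, 38.7% of its UMIs, had 1237 detected genes and 4.36% mitochondrial UMIs. It held 0 UMIs of Htr2c and 4 of Trpm3 before thinning. The part of RNA quality in these ranges was not tested. In the total knockout (26 unmixed members, 20 left out) the highest value was also that of Ttr, at 31.4 (23 to 219 UMIs, median 69). Nlgn1, a synaptic adhesion gene, came next at 11.9, and all 58 of its UMIs in unmixed members lay in 5 of 46.

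Sex could be read from Xist and Y-linked transcripts, which the rule did not use. Of the 109 wild-type members 46 had only Xist, 45 only Y-linked transcripts, 6 both and 12 neither. The female share of those with 1 kind was 50.5% (39.9% to 61.2%), and 53.3% (52.2% to 54.3%) among the other wild-type barcodes, so the intervals overlapped. In the total knockout 60 members were male and 0 female, like the rest of that library. In the astrocyte knockout 5 were female and 4 male, and both members of the neuron knockout were female.

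Total knockout members were compared with wild-type members on unmixed barcodes, 46 against 101, a comparison chosen after the counts of members were seen. Ttr and several other secreted genes were lower in the total knockout and a few genes were missing from it, while the 6 marker genes of the rule differed by less than 2-fold, some of them beyond counting error. Members of both libraries had to hold at least 2 of the 6, and with mixed members kept the median log2 ratio of the 5 plexus markers (Ttr, Folr1, Otx2, Clic6 and Htr2c) was -0.70, against -0.03 without them. Of 2513 genes with at least 50 UMIs over both, 38 (1.51%) were at least 2-fold higher in the total knockout and 77 (3.06%) at least 2-fold lower, with a median log2 ratio of 0.12. By counting intervals the balance was the other way, with 162 of 2505 genes above equal levels and 112 below. Without Ttr and mitochondrial UMIs in the total, 26 were higher and 92 lower. Over all other barcodes of the same libraries these shares were 0.969% and 1.73%. Set against the male wild-type members alone (42), 17 of 1421 genes (1.20%) were higher and 29 (2.04%) lower. Between female and male wild-type members, 7 (0.393%) and 10 (0.562%) of 1779 genes were past 2-fold. These shares are not like for like, since counting error takes more genes past 2-fold in shallower pools. In shared genes, the unmixed total knockout and wild-type pools held 110318 and 457819 UMIs. The female and male pools held 182744 and 234594, and the other barcodes of the total knockout and wild type 192996286 and 89367468.

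With mixed members kept, 361 of 3614 genes (9.99%) were higher and 144 (3.98%) lower, and the general neuronal marker Syt1 moved from 2.53 below wild type to 2.29 above it on the log2 scale. The unmixed barcodes are therefore used below. In them the neuronal list took 0.0258% of UMIs in wild type and 0.0109% in the total knockout, the inhibitory neuron list 0.205% and 0.130%, the endothelial list 0.0856% and 0.0825%, the oligodendrocyte list 0.0133% and 0.0190%, the oligodendrocyte precursor list 0.00611% and 0.0136%, the astrocyte list 0.0162% and 0.0136%, the mural list 0.00611% and 0.00181%, and the meningeal fibroblast list 0.00371% (17 UMIs) and 0.000906% (1 UMI). Median UMIs were 4471 and 2219.5. Their part in the differences was not tested.

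Htr2c, Enpp2 and Prlr lay near equal levels in the 2 libraries, while the wide interval of Otx2 reached from near equal to higher levels. The rule used Htr2c, Prlr, Otx2, Folr1 and Kl in both, so their ratios are a description. Htr2c stood at 17596 CPM in wild type and 17179 in the total knockout (log2 ratio -0.03, interval -0.11 to 0.04), with per-nucleus medians of 78 and 34 UMIs. Enpp2 stood at 10870 and 11489 CPM (0.08, -0.01 to 0.17), Prlr at 1489 and 1658 (0.16, -0.09 to 0.39) and Otx2 at 334 and 453 (0.46, -0.05 to 0.91). Trpm3 stood at 23959 and 29837 CPM (0.32, 0.26 to 0.37), but with mixed members kept its ratio was -0.37, that of Htr2c -0.70 and that of Enpp2 -0.61. Folr1 (435 and 281 CPM, -0.59, interval -1.23 to -0.08), Kcnj13 (509 and 344, -0.53, -1.10 to -0.06) and Kl (786 and 589, -0.40, -0.82 to -0.03) were lower, short of 2-fold. The nutrient, receptor, junction and transcription factor lists had 0 genes past 2-fold in either direction, of 17, 13, 8 and 11 measured, with medians of -0.02, 0.10, 0.32 and 0.10. The ion and water transport list had 2 of 17 at least 2-fold lower and 0 higher, with a median of 0.06. Over all 2513 genes 1.51% were at least 2-fold higher and 3.06% lower. At these shares, counts near 0 in lists this small say little about the lists.

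Beside 3.06% lower and 1.51% higher over all 2513 genes, the secreted list had 4 of 21 measured genes at least 2-fold lower and 0 higher. Its median was -0.36. The 4 were Apoe at 758 CPM in wild type and 326 in the total knockout (log2 ratio -1.18), the protease inhibitor gene A2m at 146 and 54.4 (-1.23), Trf at 120 and 45.3 (-1.17) and Ecrg4 at 1002 and 471 (-1.06, interval -1.53 to -0.67). Ecrg4 was seen in 88 of 101 and 25 of 46 nuclei (87.1% and 54.3%), and after thinning to 1000 UMIs in 59.0% (48.3% to 69.1%) and 33.8% (19.7% to 50.5%). Igf2 (0.23), F5 (0.17), Col8a1 (-0.01) and Clu (-0.17) were within their counting intervals of equal levels. In the other barcodes Apoe had a log2 ratio of -0.97 and Ecrg4 -0.53, so both were lower there too. Short genes stood lower as a class. Of 186 genes that span up to 10 kb, 19 were at least 2-fold lower and 2 higher, with a median of -0.07, and of 960 genes over 100 kb 22 were lower and 14 higher, with a median of 0.16. Apoe, Cst3 and Ptgds are among the genes up to 10 kb. In the other barcodes the medians of these classes were -0.22 and 0.02. Within the wild-type library, female over male members gave medians of -0.29 and 0.07, a wider gap between short and long genes than that between the libraries. The part of gene length in the differences was not tested.

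Ttr itself stood just short of 2-fold lower, and the rule had used it with a minimum of 10 UMIs. Unmixed wild-type members held 19 to 4440 UMIs (median 367) and total knockout members 12 to 416 (median 82.5), so the ranges overlapped over most of the total knockout. As a share of UMIs the medians were 8.59% and 3.69%, and the summed levels 100414 and 50242 CPM. The log2 ratio was -0.999 (interval -1.04 to -0.96), and -0.87 without the 2 wild-type members with most Ttr. It was -1.07 both against male wild-type members and with members of at least 2000 UMIs. With mixed members kept the ratio was -1.53, past 2-fold. In the other barcodes of the 2 libraries it was -0.81. The other barcodes are not free of plexus transcripts: in single ones the 5 plexus markers, Ttr included, took up to 17.4% of UMIs in wild type and 10.2% in the total knockout. Female wild-type members lay 0.27 below male ones on the log2 scale.

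**Figure D4:**
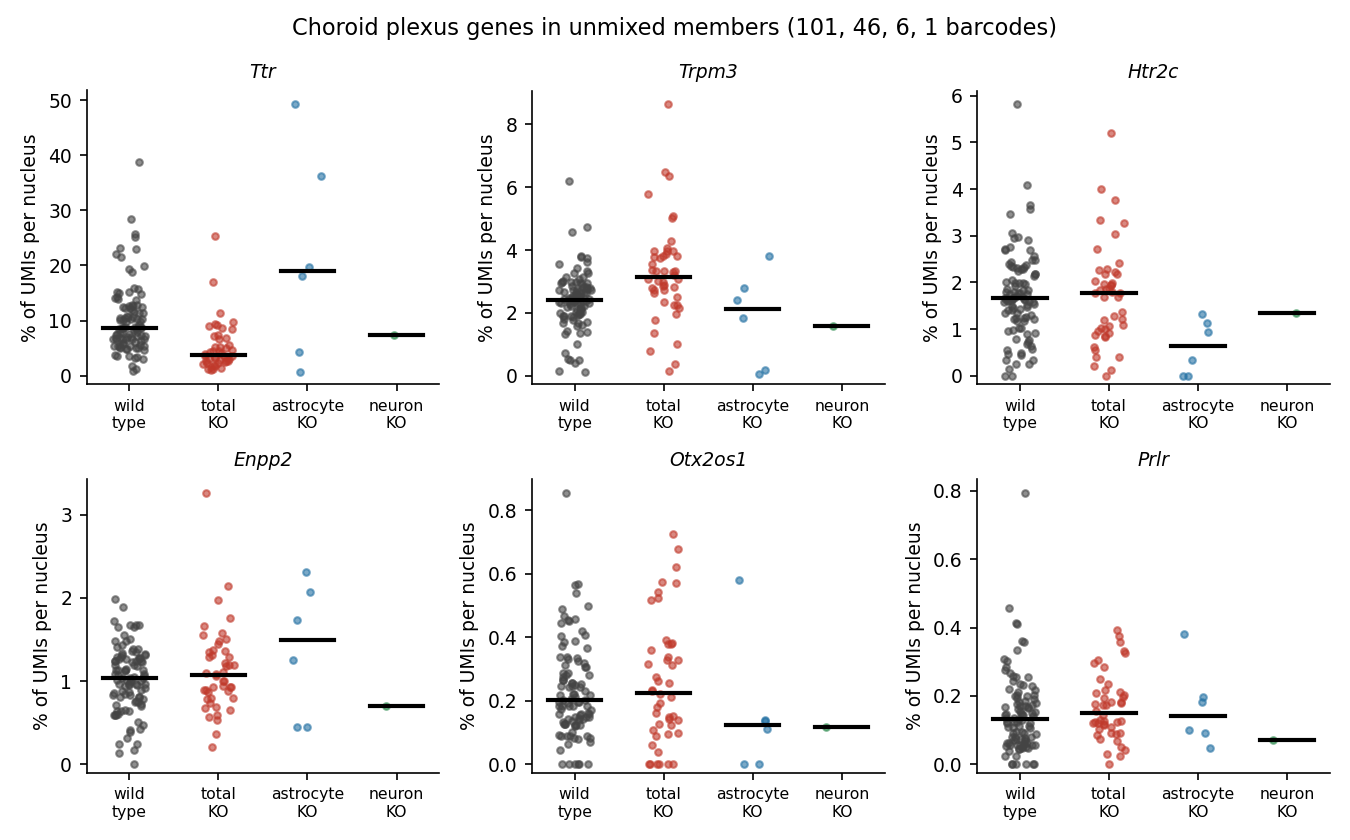
Each point is 1 unmixed member, each panel 1 gene, the vertical axis the gene's share of that nucleus's UMIs in percent and the line the median of the library (101, 46, 6 and 1 barcodes). Ttr has a median of 8.59% in wild type and 3.69% in the total knockout, while the Htr2c and Enpp2 points of these libraries overlap over most of their range.

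Larger ratios belonged to genes of several roles. Ptgds stood at 782 CPM in wild type and 136 in the total knockout (log2 ratio -2.43, -3.38 to -1.78) and was seen in 84 of 101 against 9 of 46 nuclei, with a ratio of -0.12 in the other barcodes. The 8 markers of meningeal fibroblasts, the class with the highest Ptgds, held 17 UMIs in wild type and 1 in the total knockout, and their part was not tested. The pump subunit gene Atp1b1 stood at 729 and 127 CPM (-2.43, -3.41 to -1.76, and -0.72 with mixed members kept), in 90 of 101 and 7 of 46 nuclei. These counts of nuclei with Ptgds or Atp1b1 were not thinned. The median depth was 4471 UMIs in wild type and 2219.5 in the total knockout, so they are not like for like. The regulator gene Fxyd1 stood at 336 and 109 (-1.52, -2.61 to -0.78).

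The dynein gene Dnah9 stood at 349 and 27.2 CPM (log2 ratio -3.28, -5.98 to -2.11). Without thinning to a like depth, Dnah9 was seen in 64 of 101 and 3 of 46 nuclei. It was the 1 gene past 2-fold of 13 measured cilia genes, whose median was 0.01. Over all 2513 genes 3.06% were at least 2-fold lower and 1.51% higher. Dnah11 and Dnah6 stood at 0.19 and -0.04. Pdzrn4, a ubiquitin ligase family gene, stood at 454 and 45.3 CPM (-3.07). Both genes had ratios near or above equal in the other barcodes, 0.02 and 0.42. With mixed members kept they stood at -1.09 and -1.76, and against male wild-type members at -3.30 and -3.04.

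In 6 genes the total knockout had 0 UMIs where at least 10 were expected from wild type, so that only a level of up to 27.2 CPM is allowed. They were the noncoding Gm49980 (90 UMIs in 48 wild-type nuclei, 197 CPM), Arhgap18, a GTPase-activating protein gene (82 in 49), Npr3, the clearance receptor of natriuretic peptides (76 in 41), Pde5a, which degrades cyclic GMP (52 in 32), Man1a, a Golgi mannosidase (50 in 30), and Atp5g3, a subunit of ATP synthase (49 in 35). In the other barcodes of the total knockout all 6 were seen. Gm49980 was over 4-fold lower there too, at 1.85 CPM against 8.60 in those of wild type, while Arhgap18 stood at 47.5 against 35.7, Npr3 at 23.8 against 27.5, Pde5a at 20.0 against 17.6, Man1a at 262 against 252 and Atp5g3 at 30.2 against 36.7.

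Of the genes higher in the total knockout, Nlgn1 and Frmd4a had the largest ratios (3.69 and 3.51), but their 58 and 54 UMIs came from 5 and 4 of the 46 nuclei. Spread over more nuclei were Btaf1, a regulator of TATA-binding protein (118 and 344 CPM, log2 ratio 1.56, 38 of 101 and 23 of 46 nuclei), Gldc, the glycine decarboxylase gene (61.1 and 208 CPM, 1.78, 22 and 17 nuclei), and Aifm3, a mitochondrial protein gene (100 and 281 CPM, 1.50, 33 and 19 nuclei). With the same expectation in the other direction, 32 genes had 0 UMIs in unmixed wild-type members where at least 10 were expected from the total knockout. The counts behind them are smaller, since in the smaller total knockout pool 3 UMIs give that expectation, and most of the 32 rest on 3 or 4 UMIs. The highest were Sox5 with 34, Opcml with 24 and Tnr with 12. Among them Opcml and Lrrtm4, both neuronal, stood at 4305 and 4120 CPM in the other wild-type barcodes. Tnr is on the oligodendrocyte precursor list, which held 15 UMIs in the unmixed total knockout members. The limits that define unmixed members did not use that list. The part of neuronal and precursor transcripts in these counts was not tested.

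**Figure D5:**
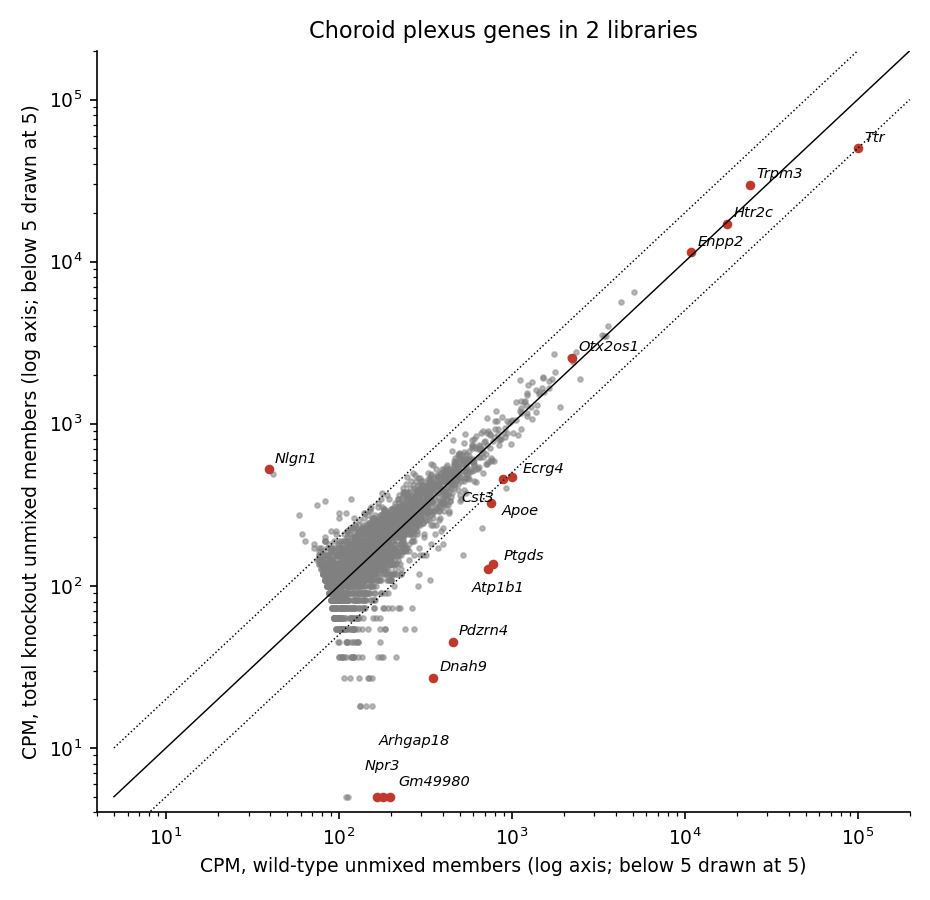
Each point is 1 of 2513 genes, placed by its CPM in unmixed wild-type members (horizontal) and unmixed total knockout members (vertical), both on log axes with values below 5 drawn at 5; the solid line marks equal levels and the dotted lines 2-fold. Trpm3, Htr2c, Enpp2 and Otx2os1 lie near the solid line, Ttr on the lower dotted line, and Ptgds, Atp1b1, Pdzrn4 and Dnah9 below it.

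Of 15 measured oxidative phosphorylation genes 2 were at least 2-fold lower, Cox5b (135 and 36.2 CPM, log2 ratio -1.60) and Atp5j (173 and 63.4 CPM, -1.27), and 0 higher, with a median of 0.03. Atp5g3, with 49 UMIs in wild type and 0 in the total knockout, missed the minimum of 50 UMIs and is not among the 15. Of 42 ribosomal protein genes 1 was lower and 0 higher, with a median of 0.15. Over all 2513 genes 3.06% were at least 2-fold lower and 1.51% higher. Ribosomal protein genes took 0.761% of UMIs in wild type and 0.748% in the total knockout, and mitochondrial genes 0.247% and 0.207%. The stress-responsive kinase gene Sgk1, which mineralocorticoids induce, stood at 373 and 172 CPM (-1.05). Of the endocannabinoid list 3 genes were measured and 0 were past 2-fold: Mgll at 124 and 81.5 CPM had a log2 ratio of -0.48, with an interval from -1.81 to 0.41.

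The members of the astrocyte knockout were few and unlike each other. Of the 11, 4 held between 1.54% and 2.33% of their UMIs in neuronal genes and 1 held 1.56% in oligodendrocyte genes. The 6 unmixed members held 31, 717, 119, 436, 732 and 775 Ttr UMIs. Of these, 4 held Trpm3 at 119, 73, 104 and 53 UMIs and Htr2c at 40, 52, 9 and 25. The other 2, with 732 and 775 Ttr UMIs, had 857 and 516 detected genes, 0 UMIs of Htr2c, 1 and 3 of Trpm3, and 36.1% and 49.3% of their UMIs in Ttr. Mitochondrial genes took 2.32% and 7.63% of their UMIs, 5.28% in the member with 717 Ttr UMIs and 1.68% in that with 436, against 0.0367% and 0.0235% in the unmixed members with 119 and 31 Ttr UMIs and 0.0282% over the rest of the library. The part of RNA quality in these profiles was not tested. Otx2 was at 0 in all 11.

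The neuron knockout had 1 unmixed member, with 320 Ttr UMIs (7.43% of its total), 68 of Trpm3, 58 of Htr2c, 30 of Enpp2 and 2 of Otx2, and 0 of Kl, Kcnj13 and Gmnc. Its other member had 53 Ttr UMIs among 13994 and 2.48% of its UMIs in neuronal genes. Sums over so few barcodes are dominated by single nuclei, and no gene was compared between these libraries and wild type.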

How the data were processed

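Nuclei were cleaned on iodixanol and RNA libraries built with the 10x Genomics kit for chromatin and RNA, per the labels' protocols. The authors deposited raw whole-number UMI counts for each barcode, and the submitters' processing notes name the build mm10 and Cell Ranger ARC 2.0.0. No label states whether strand was used. Each file held a selection of barcodes and genes. Counts were summed over members and scaled to CPM here, in python 3.11.15 with numpy 2.4.6 and scipy 1.17.1. Log2 ratios used a pseudocount of 1 count. Intervals are exact (Poisson, conditional binomial, Clopper-Pearson) at 95%. Calls were 4-fold against other wild-type barcodes (at least 20 UMIs observed or expected) and 2-fold between libraries (at least 50 UMIs). The interval code was tested on simulated data. Doublets were called by Scrublet in scanpy 1.11.5 and kept, unless stated. Thinned shares are expectations over all draws. Members and lists were chosen with earlier results of these data known. Genes named are list members with the highest level or extreme ratios, the 15 highest and 10 lowest ratios outside the lists, the 10 highest levels, the 10 most variable genes and the 5 most like Ttr. Genes named between libraries were chosen after the values were seen.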

Additional observations from a re-analysis of the deposited data

How the results depend on the processing

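No paired analysis was possible because each genotype had 1 library. The number of total knockout members was 73, but 1 with doublets and mitochondrial barcodes removed and 46 with mixed barcodes left out. That of the astrocyte knockout was 11, but 5 with 3 of 6 markers and 6 without mixed barcodes, and that of the neuron knockout 2, but 1 without mixed barcodes. The wild-type number stayed between 101 and 117 and the female share between 49.4% and 56.1%. Against the other barcodes, genes 4-fold higher and lower numbered 6678 and 1428 with no filter, 473 and 583 with a filter of 50 UMIs, and 1966 and 1305 at a fold of 2. Between total knockout and wild type, genes 2-fold higher and lower numbered 361 and 144 with all members, 17 and 29 against male wild-type members, 306 and 271 with a filter of 20 UMIs and 3 and 21 with one of 100. The higher share of calls was 33.0% as reported, 22.0% with Ttr and mitochondrial UMIs left out of the total, 71.5% with all members, 53.0% at 20 UMIs and 12.5% at 100. The log2 ratio of Trpm3 was -0.37 with all members. The cause of these changes was not tested, apart from filters and members left out, which change the genes and barcodes compared. Alternatives on unmixed members and between the libraries were chosen after seeing the data. A depth of 110367 UMIs in the unmixed total knockout members limits genes below 27.2 CPM.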
